A study of Homo sapiens with 4 samples.

Results

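A mimic of the microRNA miR-429 was transfected into EpCAM-negative HCCLM3 cells, and its array was set against that of a negative-control (NC) mimic in cells of the same sort. HCCLM3 is an established human hepatocellular carcinoma line, and EpCAM is a surface adhesion molecule of epithelial and liver tumour-initiating cells, by which the cells had been separated magnetically. Both EpCAM-negative groups received 100 nM of mimic with the INTERFERin reagent for 4 days. The 2 EpCAM-positive groups, which serve here for side values, received 40 µM of a cholesterol-conjugated antagomir, either antagomir-429 or an NC antagomir, also for 4 days. Each of the 4 groups is 1 sample on 1 Affymetrix U133 Plus 2.0 array, so the differences have no replicate check and no p-value is given. A gene was taken from its brightest probe set among those annotated to 1 gene symbol, by the mean log2 signal of the 4 arrays. It was kept where that mean was at or above the 75th percentile of all non-control probe sets, a signal of 265.6. This left 8130 of 19775 genes, called the brighter genes below. CDC14B was the last gene inside that filter, at a mean signal of 265.6, and FCMR the first outside it, at 265.5.

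miR-429 is 1 of 5 members of the miR-200 family, which keep epithelial cells epithelial by repressing the transcription factors ZEB1 and ZEB2, themselves repressors of cadherin and junction genes. A microRNA guides an Argonaute protein to messages that pair with its seed, bases 2 to 8 from the 5′ end, and the message is then translated less and degraded. A mimic is a synthetic duplex that supplies the mature strand. The 5 mature sequences are shown because the seed decides which messages the mimic can pair with. They are from RefSeq on GRCh38.p14, and capitals mark the seed.
miR-429, chr1:1169055-1169076, plus strand: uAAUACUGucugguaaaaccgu
miR-200b-3p, chr1:1167160-1167181, plus strand: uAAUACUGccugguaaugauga
miR-200c-3p, chr12:6963742-6963764, plus strand: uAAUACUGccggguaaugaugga
miR-200a-3p, chr1:1167916-1167937, plus strand: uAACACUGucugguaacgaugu
miR-141-3p, chr12:6964155-6964176, plus strand: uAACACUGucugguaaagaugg
miR-429 shares its seed with miR-200b-3p and miR-200c-3p. The seed of the other 2 differs from it by U4C, counted from the 5′ end with the base of miR-429 first.

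The label of the sort was not mirrored by EPCAM mRNA. EPCAM gave a signal of 1106 on the NC mimic array of the EpCAM-negative cells and of 1235 on the NC antagomir array of the EpCAM-positive cells. Keratins KRT8 (33449 with the NC mimic) and KRT18 (50499) were bright, and 6 of 8 epithelial markers were brighter genes, while CDH1 and KRT19 lay under 70 on all 4 arrays. Of 16 hepatocyte markers only RBP4, a carrier of retinol, was a brighter gene, at 1387 and 1388 on the mimic arrays. ALB had signals of 33.2 and 4.0 there, and AFP of 91.5 and 98.8. Markers of leukocytes (0 of 8 brighter; summed signal 162 with the NC mimic and 301 with miR-429) and of endothelium (0 of 5; 206 and 486) were dim. Of 7 stromal markers COL1A1 and ACTA2 were brighter genes, and all 7 summed to 8187 and 8280. Technical measures moved with the mimic. The poly-A spike-in controls were lower by 0.82 on the log2 scale on the miR-429 array than on the NC mimic array, and the hybridisation controls by 0.46. The 3′ to 5′ signal ratio of ACTB was 2.63 against 3.41. Their part in the results was not tested.

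With the miR-429 mimic, more brighter genes lay at least 2-fold higher than at least 2-fold lower. The counts were 146 higher, which is 1.8% of the 8130, and 36 lower, which is 0.443%. The distribution as a whole was centred, with 3956 genes (48.7%) above 0 and a median log2 ratio of -0.014. Quantile normalization of the 4 arrays left 114 higher and 56 lower, so that 67.1% of the genes past 2-fold were higher in place of 80.2%. Subtracting the median ratio of genes of like span left 91 and 52, or 63.6% higher. Of the 146 genes 60 had an NC mimic signal under the filter, and of the 36 genes 19 had a miR-429 signal under it. The filter mean includes the miR-429 array, so a gene dim elsewhere could pass it through the signal that makes its ratio high. Genes near the size that counts were WTAP, the last inside at a log2 ratio of 1.001, and YLPM1, the first outside at 0.998, and on the other side SAMD4B at -1.001 and TMEM198 at -0.998. The EpCAM-positive pair spread less: 24 genes (0.295%) were at least 2-fold higher with antagomir-429 and 15 (0.185%) lower. Measured by a robust SD of the log2 ratios, the spread was 0.44 in the mimic pair against 0.21 in the antagomir pair.

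**Figure D1:**
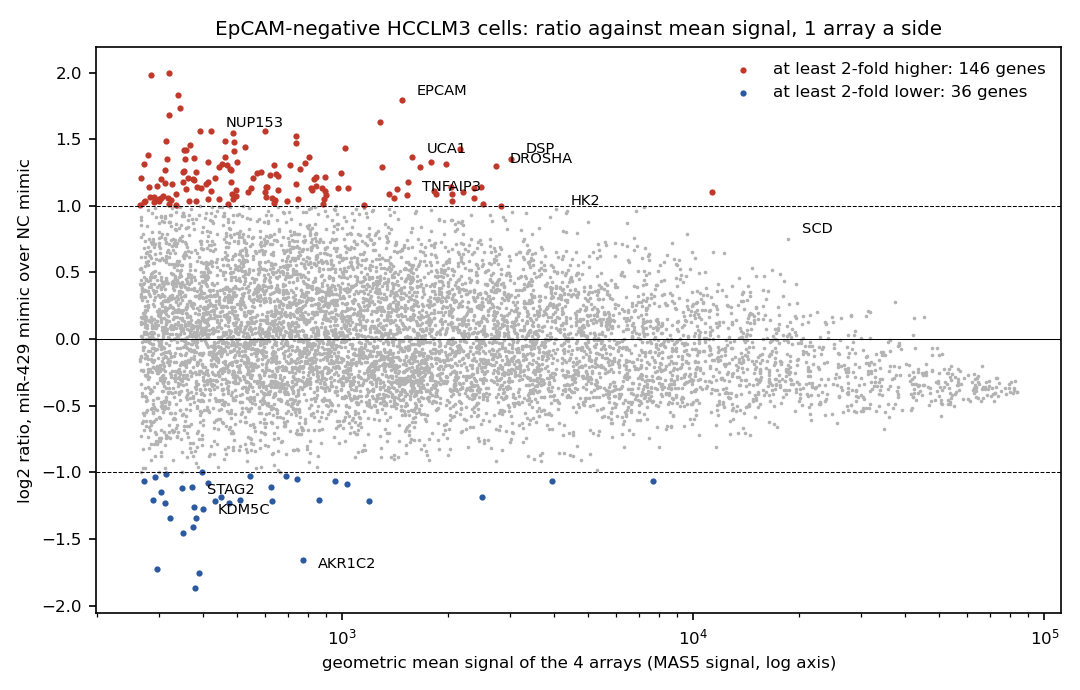
Log2 ratio of miR-429 over NC mimic (vertical axis) against the geometric mean signal of the 4 arrays (horizontal log axis), 1 point for each of 8130 brighter genes. The 146 genes at least 2-fold higher are red and the 36 at least 2-fold lower are blue; at the bright end most points lie below 0.

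The position of a gene in this comparison went with its signal and with the length of the gene. In 4 equal groups by mean signal, the median log2 ratio was 0.08 in the dimmest, 0.05 and -0.02 in the next 2, and -0.16 in the brightest, whose signals ran from 3506 to 83607. Of the 146 higher genes 80 were in the dimmest group and 1 in the brightest. In 10 equal groups by genomic span, the distance from the first to the last base of a gene in RefSeq, the median was higher at each step or level with the one before. It was -0.28 among the shortest genes, of median span 2.7 kb, and 0.30 among the longest, of 194.1 kb. The 2 groups of longest genes held 36 and 58 of the 146 higher genes. Median span was 94.1 kb for the higher genes, 27.3 kb for the lower and 25.2 kb for all. The same ends were -0.11 and 0.14 when the NC antagomir array was set against the NC mimic array, and -0.01 and 0.05 in the antagomir pair. The gene groups called off 0 below are therefore also given after subtracting the median ratio of genes of like span. Why signal and span moved with the ratio was not tested.

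**Figure D2:**
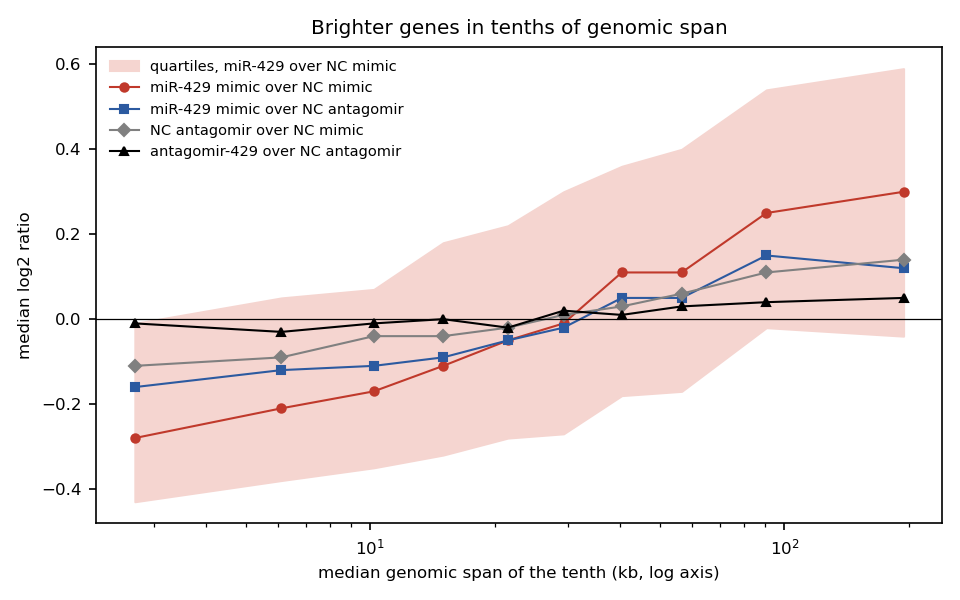
Median log2 ratio (vertical axis) of brighter genes in 10 equal groups by genomic span (horizontal log axis, kb) for 4 pairs of arrays; the band gives the quartiles of miR-429 over NC mimic. The red line runs from -0.28 at 2.7 kb to 0.30 at 194.1 kb and the black line of the antagomir pair from -0.01 to 0.05.

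Among genes bright on both mimic arrays, EPCAM itself had the largest ratio. Its signal was 1106 with the NC mimic and 3838 with miR-429, against 1235 with the NC antagomir and 913 with antagomir-429. The miR-429 array was above the other 3, and the ratio over the NC mimic was 1.80 on the log2 scale, or 3.47-fold. EPCAM spans 17.7 kb, less than the median gene. The only bright probe set of EPCAM carries a suffix for shared probes (_s, _x or _a), as does that of FBN1. In the antagomir pair the EPCAM ratio was -0.44, and of the 12 highest genes only LMTK2, BCORL1 and FBN1 were also below 0 there. UCA1, a long non-coding RNA first described in bladder carcinoma, had signals of 1496, 3861, 884 and 1226 on the NC mimic, miR-429, NC antagomir and antagomir-429 arrays. Its ratio was 1.37 over the NC mimic and 2.13 over the NC antagomir.

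The other 10 of the 12 had varied roles. OSMR, the receptor subunit for oncostatin M, had signals of 1347 with the NC mimic, 3620 with miR-429, 1821 with the NC antagomir and 2451 with antagomir-429, a log2 ratio of 1.43. DRAM1, a lysosomal membrane protein induced by p53, had 299, 832, 382 and 609 in the same order, a log2 ratio of 1.48. In both genes the miR-429 array was the highest and the NC mimic array the lowest. KLF11, a zinc finger factor of TGF-beta signalling, had 342, 948, 883 and 1026. For KLF11 the NC mimic array stood below the other 3, and the ratio of 1.47 over the NC mimic was 0.10 over the NC antagomir. The same shape held for LMTK2, a membrane kinase (276, 817, 867 and 678), and for FBN1, a microfibril protein of the matrix (365, 1047, 917 and 838). FAF2, which extracts proteins from the endoplasmic reticulum, was 1.63 by its brightest probe set and 0.02 by its other bright one. BCORL1, a corepressor (1.55), NUP205 (1.44), ANTXR1, an anthrax toxin receptor (1.43), and AMOTL1 (1.37) complete the 12.

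The largest lower ratio among genes bright on both arrays belonged to AKR1C2, an aldo-keto reductase that inactivates steroids. Its signals were 999 with the NC mimic, 317 with miR-429, 1075 with the NC antagomir and 1053 with antagomir-429. The miR-429 array was below the other 3, which lay close together, and the log2 ratio was -1.66, or 3.16-fold lower. The second bright probe set of AKR1C2 gave -0.32. SSBP4, a single-stranded DNA binding protein, had 3130, 1378, 3107 and 2913 and so the same shape, at -1.18, with -0.37 by its other bright probe set. The brightest probe sets of AKR1C2 and SSBP4 carry a suffix for shared probes. GAMT, the enzyme that completes creatine synthesis, had 1774, 762, 1502 and 996, at -1.22, though another bright probe set gave -0.35. EIF3E, a subunit of the translation initiation factor eIF3, had 10262, 4906, 8024 and 8627, at a log2 ratio of -1.06. In COPS2, a subunit of the COP9 signalosome, only the NC mimic array stood apart, at 1917 against 902, 882 and 731, so that a ratio of -1.09 over the NC mimic was 0.03 over the NC antagomir. The other 7 of the 12 lay between -1.21 and -1.07: SMIM27, CACNG4, CCDC152, RFNG, TOMM40L, STAG2 and CEP170B. SMIM27 had -0.5 by its other bright probe set. GAMT, EIF3E, COPS2, CCDC152 and CEP170B were also read by probe sets with a suffix for shared probes. RFNG is a glycosyltransferase that modifies Notch.

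**Figure D3:**
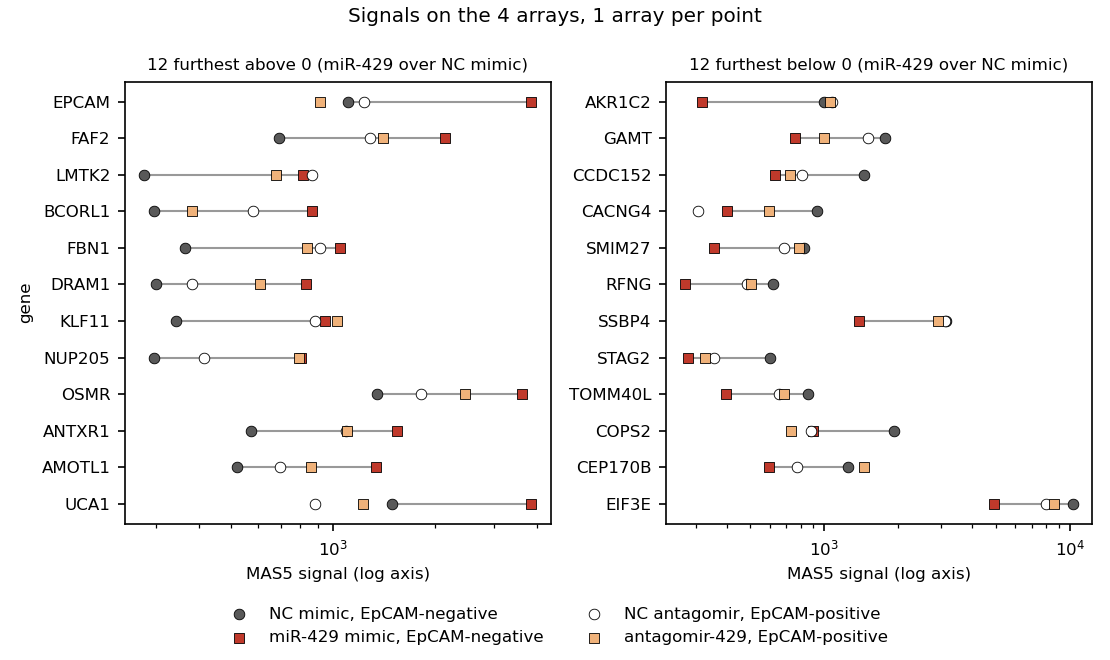
Signals (horizontal log axis, 1 array per point) of the 12 genes furthest above 0 and the 12 furthest below 0 among those at or above the filter on both mimic arrays. The grey line joins the NC mimic to the miR-429 mimic; EPCAM runs from 1106 to 3838 and AKR1C2 from 999 to 317, with both EpCAM-positive arrays near the NC mimic.

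Genes were next read in 78 lists of pathways, complexes and markers and in 70 families sharing a symbol root. A list is described by the number of its brighter members above and below 0 and by its median, beside -0.014 for all brighter genes. A median of at least 0.25 in size, over 5 or more members, was taken as off 0. Of 77 lists with enough members 17 were off 0 above and 5 below, and of the 70 families 4 above and 7 below. After subtracting the median of genes of like span, 7 of those lists and 2 of those families were still off 0. With the NC antagomir array as control, which shares the miR-429 array with the main comparison, 2 lists and 3 families were. That control also differs from the miR-429 array in sorted fraction, kind of oligonucleotide and dose, which cannot be told apart from the mimic. The like-span reading and this one both left the NF-kB list, the hypoxia list and the NUP family.

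**Figure D4:**
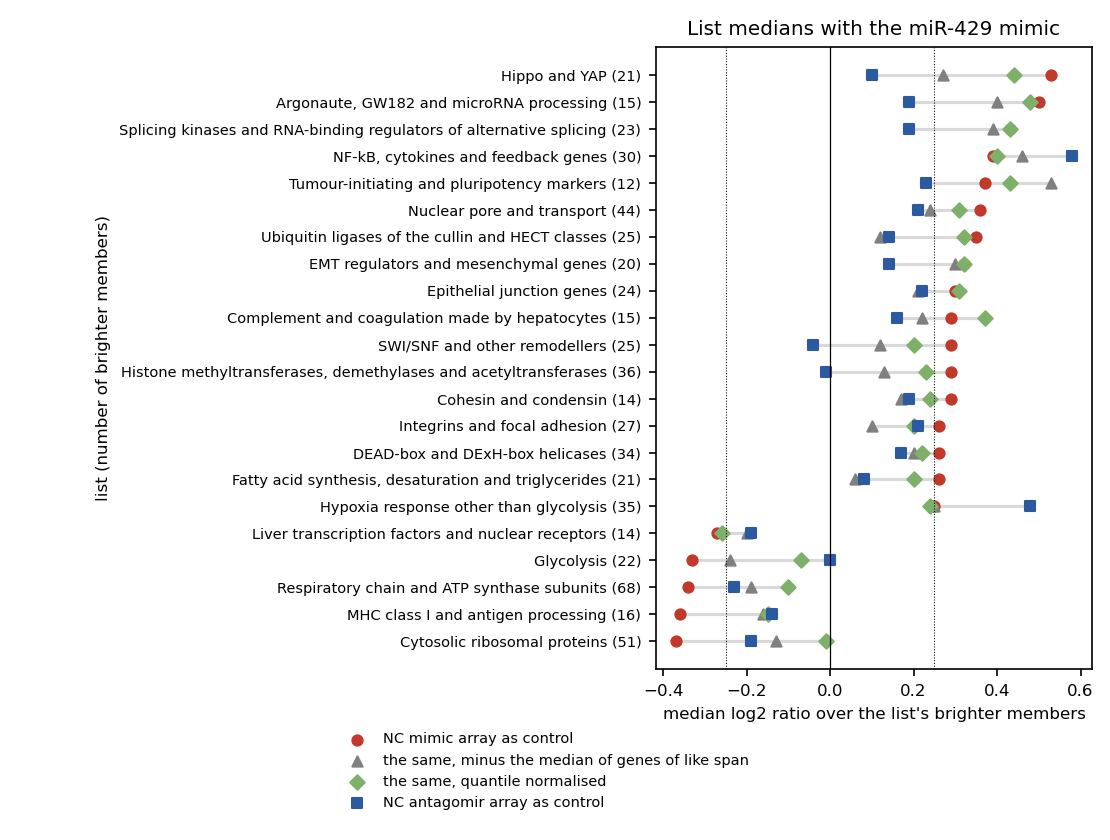
Median log2 ratio (horizontal axis) over the brighter members of the 22 lists off 0, with the number of members in brackets, for the main comparison and 3 other readings; dotted lines mark 0.25 on either side. The NF-kB list lies at or above 0.39 in the 4 readings plotted and the cytosolic ribosomal proteins run from -0.37 to -0.01.

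NF-kB is a family of transcription factors held in the cytoplasm by IkB proteins until cytokine receptors or other stimuli free them, and its target genes include cytokines and its own inhibitors. Of 30 brighter members of the list, 24 were above 0 and 6 below, and the median was 0.39. At least 2-fold higher were 4 of them, beside 1.8% of all brighter genes. The median was 0.46 against genes of like span and 0.58 over the NC antagomir array, but 0.25 with the filter at the median signal and 0.16 with the filter at the 90th percentile. TNFAIP3, the ubiquitin-editing inhibitor A20, had signals of 1508 with the NC mimic, 3194 with miR-429, 1096 with the NC antagomir and 1040 with antagomir-429. The miR-429 array stood above the other 3, and both bright probe sets of TNFAIP3 agreed, at 1.08 and 1.18. LCN2, a secreted iron-siderophore binder, had 216, 537, 249 and 188, at 1.32. LCN2 lay under the filter signal on the other 3 arrays and was kept only through the miR-429 array, so its place among the 4 partly follows from the filter. TRAF3, an adaptor that restrains the non-canonical arm, had 278, 688, 405 and 624, at 1.31, with 0.49 by a second probe set. TNFRSF21, a death receptor, had 449, 938, 631 and 591, a 2.09-fold ratio.

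Values of other NF-kB members, chosen after they were seen, are given by role. Among the subunits, NFKB1 had 0.75, NFKB2 0.39 and RELB 0.35, while RELA had 0.02. Among the IkB proteins, NFKBIZ had 0.73, NFKBIB 0.49 and NFKBIA 0.44, whereas NFKBIE had -0.27. Of secreted members, CXCL2 had 0.68, IL18 0.61 and IL6 0.50, with IL6 signals of 806 and 1139. ICAM1, an adhesion molecule for leukocytes, had 0.61. TNFRSF1A, the main receptor for TNF, lay furthest below 0, at -0.29.

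The promoter of TNFAIP3 is shown because it carries a site of the type NF-kB binds. In the 300-base window around the gene start, from RefSeq on GRCh38.p14, both strands were searched for GGGA, any 1 base, then TTTCC. The motif was found 67 bases before the start on the minus strand, in capitals.
TNFAIP3, chr6:137867009-137867308, plus strand: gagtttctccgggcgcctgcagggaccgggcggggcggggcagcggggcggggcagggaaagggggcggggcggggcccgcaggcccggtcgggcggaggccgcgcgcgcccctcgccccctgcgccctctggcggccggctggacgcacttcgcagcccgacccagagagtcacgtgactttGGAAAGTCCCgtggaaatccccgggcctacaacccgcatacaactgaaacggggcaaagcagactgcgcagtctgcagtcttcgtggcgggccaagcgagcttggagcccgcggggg
Of 21 list members with a promoter in RefSeq's set, 7 held these letters, namely CXCL2, IL6, IL32, NFKB1, NFKBIA, NFKBIZ and TNFAIP3. The share was 33.33%, against 0.58% of all 27305 promoters and 0.58% of the 6753 promoters of brighter genes. A match is a description of the sequence and not evidence of binding. The list was drawn up around NF-kB, so its share of these letters says nothing about the mimic.

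Complement and coagulation factors are proteins that liver cells secrete into plasma. Of 15 brighter members of the complement and coagulation list 11 were above 0, and the median was 0.29 (0.22 against like span, 0.16 over the NC antagomir). C3, the central complement component, had signals of 1830 with the NC mimic, 4011 with miR-429, 1487 with the NC antagomir and 2872 with antagomir-429. The miR-429 array was the highest, with a ratio of 1.13. C1S had 0.93, F3, which starts coagulation, 0.86 and CFB 0.82, all 3 chosen after their values were seen. Hepatocyte plasma proteins and apolipoproteins, with 5 brighter members, had 3 below 0 and a median of 0.00. Interferon-stimulated genes lay below 0 without being off 0 by the rule above. Of 29, 9 were above 0, and the median was -0.20 (-0.12 against like span, -0.14 over the NC antagomir). Their median span was 8.8 kb, and the group of all brighter genes with a median span of 10.2 kb had -0.17. OASL was at -0.56 and ADAR, an RNA-editing enzyme, at 0.69. The MHC class I list had 12 of 16 members below 0 and a median of -0.36 (-0.16 against like span). HLA-C, a class I heavy chain, had 60688 and 44326 on the mimic arrays, at -0.45, and PDIA3, a peptide-loading chaperone, had 0.56. The class I median was -0.14 over the NC antagomir array and 0.06 on probe sets without a suffix for shared probes.

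The hypoxia list held genes that HIF transcription factors induce when oxygen is low, and the factors themselves. Of 35 members other than glycolytic enzymes 25 were above 0, with a median of 0.25, also 0.25 against like span and 0.48 over the NC antagomir. This median sits on the bound for off 0, and it was 0.16 over the median of probe sets, 0.18 with the filter on the EpCAM-negative pair and 0.10 with the filter at the 90th percentile. EPAS1, the factor HIF-2alpha, had signals of 1656, 3651, 2086 and 2982 on the NC mimic, miR-429, NC antagomir and antagomir-429 arrays, at 1.14. HIF1A had 0.38, VEGFA 0.46 and LOX, a collagen cross-linking enzyme, 0.82, chosen after their values were seen. Members with some of the brightest signals lay below 0, DDIT4 at -0.41, BNIP3 at -0.37 and FAM162A at -0.56, also chosen after their values were seen. Glycolysis, also a HIF-controlled pathway, had 18 of 22 members below 0 and a median of -0.33, which was -0.24 against like span, -0.07 after quantile normalization and 0.00 over the NC antagomir. HK2, the first enzyme of the pathway, stood apart from that median, with signals of 4050, 7962, 2271 and 3707 and a ratio of 0.98. ALDOC, an aldolase, had 18429, 12008, 11523 and 10288, at -0.62, where the NC mimic array stood above the other 3.

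Hippo signalling restrains the coactivators YAP and TAZ, which act through TEAD factors. Its list had the highest median of all, 0.53 over 21 members with 14 above 0. The median was 0.27 against like span and 0.10 over the NC antagomir, so it was off 0 in only 1 of these 2 readings. In the antagomir pair the Hippo median was 0.31 with 16 of 21 above 0, the same direction as with the mimic. AMOTL1, a scaffold that binds YAP, had signals of 520 with the NC mimic, 1342 with miR-429, 695 with the NC antagomir and 861 with antagomir-429. TEAD1 had 233, 527, 222 and 563, a log2 ratio of 1.18, and was as high with antagomir-429 as with the mimic. Second probe sets gave 0.04 for AMOTL1 and 0.19 for TEAD1. YAP1 itself had 0.57 and its target CCN2 0.95, while WWTR1, which encodes TAZ, had -0.08 by its brightest and 0.81 by another probe set, all chosen after their values were seen.

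Over the NC mimic, other signalling lists were closer to 0. The TGF-beta and BMP list had 21 of 28 members above 0 and a median of 0.21. The Wnt list had 17 of 26 and also 0.21, which was -0.01 against like span, with TLE4, a corepressor, at 1.05 over the NC mimic and -0.07 over the NC antagomir. The Notch list had 12 of 26 above 0 and a median of -0.03. In it NOTCH2, a receptor, had 1.32 and SPEN, a corepressor of Notch targets, 1.33, whereas RFNG had -1.19. The EGFR and MAPK list had 13 of 22 above 0 and a median of 0.18, which was 0.56 with 15 of 22 above 0 over the NC antagomir, with the receptor EGFR at 0.86 by its brightest probe set and up to 1.32 by others, and ERBB2 at -0.83. ERBB2 had signals of 1307, 734, 1361 and 1303, so the miR-429 array was below the other 3. In the PI3K and mTOR list, with a median of -0.05, the kinase MTOR had 136 with the NC mimic, 538 with miR-429, 262 with the NC antagomir and 344 with antagomir-429. That is a ratio of 1.98, from an NC mimic signal below the filter. The mean of MTOR without the miR-429 array was also under the filter, so its place partly follows from the filter.

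Nuclear pores are rings of nucleoporins through which importins and exportins carry proteins and RNA. Of 44 brighter members of the pore and transport list 36 were above 0, and the median was 0.36 (0.24 against like span, 0.21 over the NC antagomir). The NUP genes alone had 18 of 20 above 0 and a median of 0.46 (0.32 and 0.27). NUP153, on the nuclear basket, had signals of 224 with the NC mimic, 664 with miR-429, 374 with the NC antagomir and 566 with antagomir-429. NUP205, of the inner ring, had 296, 806, 416 and 793. In both genes antagomir-429 also gave more signal than its control, and in the antagomir pair the NUP median was 0.22. NUP160 had 0.79 by its brightest and -0.18 by its lowest probe set. Importin KPNA1 had 0.95 and 1.20 by its 2 bright probe sets, yet -0.01 over the NC antagomir.

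RNA-binding regulators of splicing formed another group above 0. Of 23 splicing kinases and regulators 21 were above 0, with a median of 0.43 (0.39 against like span, 0.19 over the NC antagomir). RBM genes, which carry an RNA recognition motif, had 21 of 26 above 0 and a median of 0.39 (0.34 and 0.07). RBM26 had signals of 332, 687, 411 and 598 on the NC mimic, miR-429, NC antagomir and antagomir-429 arrays. RBM33 had 1.18 by its brightest probe set and -0.11 by its lowest, and the median of its probe sets was -0.04. SRPK1, a kinase of SR proteins, had 0.84, DYRK1A 0.94 and SON, a speckle scaffold, 0.80, chosen after their values were seen. The core of the spliceosome did not share this. Of 30 core snRNP and LSM proteins 25 were below 0, with a median of -0.24 (-0.12 against like span, -0.22 over the NC antagomir). Genes with the LSM root were taken by symbol alone and include some outside that list, such as LSM10. Of these 13, 10 were below 0, with a median of -0.28 (-0.14 against like span, -0.26 over the NC antagomir). SR proteins and hnRNPs lay between, at 0.11. DEAD-box and DExH-box helicases had a median of 0.26 with 22 of 34 above 0 (0.20 against like span, 0.17 over the NC antagomir), and DHX35 had 1.04 over the NC mimic and -0.07 over the NC antagomir.

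The proteins that make and use microRNAs lay above 0. Of 15 brighter members of that list 11 were above 0, with a median of 0.50 (0.40 against like span, 0.19 over the NC antagomir). It was 0.07 on probe sets without a suffix for shared probes and 0.22 with the filter on the EpCAM-negative pair. DROSHA, the nuclease that releases microRNA hairpins, had signals of 1548 with the NC mimic, 3817 with miR-429, 2522 with the NC antagomir and 3734 with antagomir-429. CNOT1, the scaffold of the deadenylase that microRNA complexes recruit, had 530, 1234, 908 and 1073. In both the NC mimic array was the lowest of the 4, and the ratios of 1.30 and 1.22 were 0.60 and 0.44 over the NC antagomir. AGO2 had 0.65, AGO1 0.63 and XPO5, the exporter of hairpins, 0.60, while TARBP2, a partner of Dicer, had -0.48. All 4 were picked once their values had been seen.

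Enzymes that modify histones and remodellers that move them lay above 0 over the NC mimic and at 0 or slightly below over the other control. Histone methyltransferases, demethylases and acetyltransferases had 27 of 36 above 0 and a median of 0.29, which was 0.13 against like span and -0.01 over the NC antagomir. SWI/SNF and other remodellers had a median of 0.29, then 0.12 and -0.04. KAT6A, an acetyltransferase, had signals of 223 with the NC mimic, 571 with miR-429, 258 with the NC antagomir and 303 with antagomir-429, so the miR-429 array stood alone. Its mean without that array was under the filter, so KAT6A was kept through the miR-429 signal. KDM5B, a demethylase of H3K4, had 580, 1286, 806 and 834 and between 0.90 and 1.15 over 3 probe sets. Its relative KDM5C, on the X chromosome, went the other way with 580, 239, 502 and 371, at -1.28, though a second probe set gave 0.26. ARID1A, a SWI/SNF subunit, had 1.14 by its brightest and -0.14 by its other probe set, and -0.07 over the NC antagomir. TET3, which oxidises methylcytosine, had 1.56 over the NC mimic and 0.13 over the NC antagomir. Cohesin and condensin had 9 of 14 above 0 and a median of 0.29 (0.17 against like span, 0.19 over the NC antagomir), while the cohesin subunit STAG2 had 602, 279, 357 and 327, at -1.11. Other chromatin lists were not off 0: NuRD, PRC2, SIN3 and CAF-1 subunits had a median of 0.07, genes of DNA methylation 0.18 and histones -0.13 with 4 of 16 above 0.

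Ubiquitin ligases of the cullin and HECT classes had 18 of 25 above 0 and a median of 0.35, which was 0.12 against like span and 0.14 over the NC antagomir. FBXW11, an F-box protein that marks IkB and beta-catenin for destruction, had signals of 656, 1438, 1026 and 1206, at 1.13. SMURF1, which acts on BMP signalling, had 255, 529, 573 and 504, where the NC mimic array alone was low. The list's median span was 103.4 kb. The proteasome, into which their substrates pass, had 24 of 38 subunits and assembly factors below 0 and a median of -0.21, with PSMA3 at -0.90.

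Epithelial junction genes, which ZEB factors repress, had 18 of 24 brighter members above 0 and a median of 0.30 (0.21 against like span, 0.22 over the NC antagomir). DSP, the desmosomal plaque protein desmoplakin, had signals of 1662 with the NC mimic, 4230 with miR-429, 3065 with the NC antagomir and 3859 with antagomir-429. TJP1, the tight-junction scaffold ZO-1, had 215, 554, 581 and 656. In TJP1 the NC mimic array alone was low, and a ratio of 1.37 over it was -0.07 over the NC antagomir. SPINT2, a protease inhibitor chosen after its values were seen, had -0.74. Cadherin CDH1 and the repressors ZEB1 and ZEB2, the textbook axis of miR-429, were not brighter genes. Keratins had 6 of 7 members below 0 and a median of -0.24.

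The promoter of DSP is shown because it holds 2 copies of CAGGTG, the E-box letters that ZEB and SNAI factors recognise. They lie 178 and 85 bases before the start and are in capitals, from RefSeq on GRCh38.p14 with both strands searched.
DSP, chr6:7541421-7541720, plus strand: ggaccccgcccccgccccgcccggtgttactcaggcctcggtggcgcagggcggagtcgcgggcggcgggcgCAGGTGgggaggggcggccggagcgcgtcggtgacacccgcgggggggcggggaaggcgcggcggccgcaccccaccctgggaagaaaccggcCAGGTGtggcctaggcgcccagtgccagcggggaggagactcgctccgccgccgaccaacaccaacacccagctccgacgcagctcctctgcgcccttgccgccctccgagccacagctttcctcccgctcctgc
Of 16 junction genes with a promoter in RefSeq's set, 6 held CAGGTG, which is 37.5%, against 20.6% of all promoters and 17.58% of those of brighter genes. The 6 were CRB3, DSG2, DSP, ELF3, MUC1 and TJP1, whose ratios ran from -0.28 for CRB3 to 1.37 for TJP1. The letters are common, so that a copy in a window this long is a weak description.

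Genes of the mesenchymal side were above 0 too. Of 20 brighter members of the EMT and mesenchymal list 15 were above 0, and the median was 0.32 (0.30 against like span, 0.14 over the NC antagomir). CDH2, the cadherin of mesenchymal cells, had signals of 378, 835, 639 and 662 on the NC mimic, miR-429, NC antagomir and antagomir-429 arrays, at 1.14. FBN2 had 1.13, then 0.17 over the NC antagomir. VIM, the intermediate filament of mesenchymal cells, had 37889, 36016, 40963 and 41079, a ratio of -0.07. S100A4, chosen after its values were seen, had -0.44. Integrins and focal adhesion genes had 19 of 27 above 0 and a median of 0.26 (0.10 against like span, 0.21 over the NC antagomir), with ITGA6, a laminin receptor, at 1.26. In the matrix list, median 0.13, COL12A1, a fibril-associated collagen, had 156 with the NC mimic, 622 with miR-429, 292 with the NC antagomir and 370 with antagomir-429. That 4.0-fold ratio was the largest of all brighter genes, from an NC mimic signal below the filter, and the second probe set gave 1.56 on the log2 scale. Without the miR-429 array the mean of COL12A1 lay under the filter, so its place partly follows from the filter. SERPINE2, a protease inhibitor, had 1009, 2026, 772 and 1109.

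Markers of tumour-initiating cells, among them EPCAM, had 10 of 12 members above 0 and a median of 0.37 (0.53 against like span, 0.23 over the NC antagomir). SOX9 had signals of 846 and 1504 on the mimic arrays and SOX4 2966 and 4019. CD44 had 0.42, MYC 0.31 and NOTCH1 -0.29. All 5 were picked once their values had been seen. The median of the same list in the antagomir pair, which shares no array with the mimic pair, was -0.29. Other lists above 0 with the mimic went either way in that pair. Hippo had 0.31 there and the pore and transport list 0.17, while the NF-kB list had -0.10 and complement and coagulation -0.10.

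The most uniform group lay below 0. Of 51 brighter cytosolic ribosomal proteins 50 were below 0, between -0.57 and 0.08, with a median of -0.37, and 0 of them passed 2-fold. All 25 genes with the RPS root, the root that names small-subunit proteins, were below 0, from -0.49 to -0.20. Their median of -0.38 was -0.16 against like span. Roots go by symbol alone and can hold genes outside the list: the RPL root reached 0.44. RPS24 had signals of 63107 with the NC mimic, 44916 with miR-429, 53966 with the NC antagomir and 54576 with antagomir-429, and RPL36 had 60395, 40583, 54697 and 49554. In both the miR-429 array was lowest and the NC mimic array highest. The list's median was -0.13 against genes of like span, -0.19 over the NC antagomir and -0.01 after quantile normalization, under which the RPL genes stood at 0.00. RPS and RPL genes are bright; the brightest of the 4 signal groups had a median of -0.16, and the hybridisation controls, which are spiked into each sample, differed by -0.46. The part of either was not tested.

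Ribosomal protein messages begin with a run of pyrimidines, through which mTOR controls their translation, and RPS12, chosen after the windows were searched, is shown for that start. Capitals mark CTCTTTCC, found at the first base of the gene in the RefSeq window on GRCh38.p14, with both strands searched.
RPS12, chr6:132814319-132814618, plus strand: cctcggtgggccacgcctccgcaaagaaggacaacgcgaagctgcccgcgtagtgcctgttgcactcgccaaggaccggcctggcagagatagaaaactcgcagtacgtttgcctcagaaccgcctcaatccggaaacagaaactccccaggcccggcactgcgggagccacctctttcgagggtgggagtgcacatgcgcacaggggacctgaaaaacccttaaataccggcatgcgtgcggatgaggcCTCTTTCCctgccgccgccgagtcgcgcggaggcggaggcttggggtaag
Of 45 ribosomal protein genes with a promoter in RefSeq's set, 6 held these 8 letters, or 13.33%, against 3.09% of all promoters and 2.96% of those of brighter genes. These shares count the letters anywhere in the window on either strand, and so are not counts of pyrimidine starts. RPS12 had signals of 68205 and 53260 on the mimic arrays, a ratio of -0.36. The arrays measure message levels and not translation.

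The respiratory chain lay below 0 like the ribosome, and other mitochondrial lists did so less or not at all. Of 68 nuclear-encoded subunits of the respiratory chain and ATP synthase 65 were below 0, with a median of -0.34 (-0.19 against like span, -0.23 over the NC antagomir, -0.10 after quantile normalization). NDUFA5, of complex I, had signals of 2447, 1370, 1677 and 1589 on the NC mimic, miR-429, NC antagomir and antagomir-429 arrays, at -0.84. UQCRB, of complex III, had 42484, 26614, 35421 and 37334, at -0.67, with -0.81 by its lowest probe set. All 12 NDUFA genes were below 0, with a median of -0.29 (-0.21 and -0.27 in the first 2 readings). The exceptions above 0, named after their values were seen, were UQCRC2 at 0.42, NDUFS1 at 0.30 and NDUFB6 at 0.03. COX genes had a median of -0.32 (-0.16 against like span). TIMM import subunits had 9 of 13 below 0 and -0.37 (-0.12), and the whole import list -0.12 (0.00). MRPL proteins, of the large mitochondrial ribosomal subunit, had 40 of 49 below 0 and -0.26 (-0.10), whereas MRPS proteins of the small subunit had 13 of 27 above 0 and -0.06. Mitochondrial ribosomal proteins as a whole were at -0.17, or -0.02 against like span, and the enzymes of the tricarboxylic acid cycle at -0.06.

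**Figure D5:**
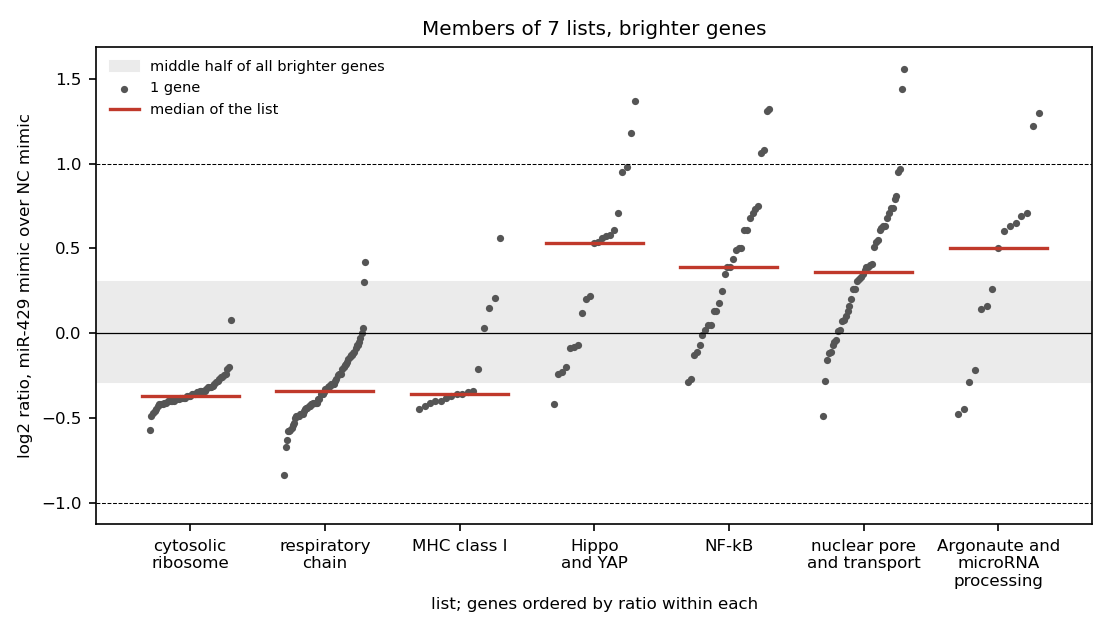
Log2 ratio of miR-429 over NC mimic (vertical axis) for every brighter member of 7 lists, ordered within each list; red lines are medians, the grey band runs from the lower to the upper quartile of all brighter genes and dashed lines mark 2-fold. The ribosomal points lie in a narrow run from -0.57 to 0.08 around -0.37, while the Hippo points run from -0.42 to 1.37 around 0.53.

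Lipid and detoxifying enzymes differed by pathway. Fatty acid synthesis had 13 of 21 members above 0 and a median of 0.26, which was 0.06 against like span and 0.08 over the NC antagomir. SCD, the desaturase that makes oleate, had signals of 14637 with the NC mimic, 24593 with miR-429, 17403 with the NC antagomir and 18941 with antagomir-429, at 0.75, and its 4 probe sets ran from 0.56 to 0.99. Sterol synthesis was at -0.09, with SQLE, an early oxidising step, at 0.80. Aldo-keto reductases and NRF2 targets had 20 of 27 below 0 and a median of -0.21, led by AKR1C2. Aldehyde dehydrogenases (ALDH) had a median of 0.33 that was 0.22 against like span and -0.23 over the NC antagomir. Fatty acid oxidation was at -0.08, where ACADS, which opens the oxidation of short chains, had 1083, 557, 891 and 949, at -0.96. Liver transcription factors and nuclear receptors had 10 of 14 below 0 and a median of -0.27 (-0.20 against like span, -0.19 over the NC antagomir), while the glucocorticoid receptor NR3C1 had 233, 431, 252 and 346, at 0.89.

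Genes of cell division were spread around 0. DNA replication had a median of 0.02 with 27 of 49 members above 0. Mitotic kinases, kinesins and kinetochore proteins were at -0.01 with 25 of 51 above 0. CDK1, the kinase that starts mitosis, had signals of 5262 with the NC mimic, 2863 with miR-429, 2745 with the NC antagomir and 3169 with antagomir-429. For CDK1 the NC mimic array alone was high, its 3 probe sets lay between -0.88 and -0.79, and the ratio over the NC antagomir was 0.06. E2F7, a repressor of E2F targets, had 447, 923, 640 and 646, at 1.05. CDK inhibitors and p53 targets were at -0.17, which was 0.03 against like span and 0.03 over the NC antagomir. BCL2-family and caspase genes had 18 of 25 below 0 and a median of -0.19. That median was -0.02 against like span and -0.02 over the NC antagomir, where 12 of 25 were above 0. In this list BAD, which promotes cell death, had -0.70 and BIK, another such protein, -0.80. RBBP4, a histone chaperone in NuRD and PRC2, had 4845, 6884, 6598 and 7029, at 0.51, and -0.49 by its lowest probe set.

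A gene read by several probe sets offers a check within the same RNA, though not a replicate. Of 2835 brighter genes with 2 or more bright probe sets, 108 (3.81%) had all of them more than 1.5-fold higher and 30 (1.06%) more than 1.5-fold lower. Of the 45 among them at least 2-fold higher by the brightest probe set, 21 had all probe sets above 1.5-fold and 5 had one below 0. Of 6 at least 2-fold lower, 0 had all probe sets past 1.5-fold and 2 had one above 0. After COL12A1 the largest by their smallest probe set were HIP1, a clathrin adaptor, from 1.26 to 1.33, and TNFAIP3. SLC38A2, an amino acid transporter, had 1.03 to 1.31, with signals of 1264, 2589, 2234 and 2454. NR4A2, an immediate early nuclear receptor, had 0.97 to 1.30, with 617, 1275, 783 and 506, so that the mimic gave the highest signal and antagomir-429 the lowest. Below 0, PTN, a heparin-binding growth factor, had -0.96 and -0.92, and CAPZA2, which caps actin filaments, -1.17 and -0.87.

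The antagomir pair, from EpCAM-positive cells, shares no array with the mimic pair. Of the 146 higher genes 0 were at least 2-fold lower with antagomir-429, beside 0.185% of all brighter genes, and 3 were at least 2-fold higher, beside 0.295%. A ratio below 0 was held by 41 of them, beside 49.3% of all brighter genes, and their median was 0.17. At these shares a count of 0 is near the background. Of the 36 lower genes 0 were at least 2-fold higher and 1 was at least 2-fold lower, beside the same 0.295% and 0.185%. Above 0 were 16 of the 36, near the 50.7% of all brighter genes, and their median was -0.04. EPCAM had -0.44 there, LCN2 -0.41, NR4A2 -0.63 and BCORL1 -0.60, while TEAD1 had 1.34 and C3 0.95, the same direction as with the mimic. Over the NC antagomir array as control the mimic array had 105 genes (1.29%) at least 2-fold higher and 35 (0.431%) at least 2-fold lower. The 146 genes had a median of 0.53 and the 36 a median of -0.82 in that reading, which shares the mimic array with the first.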

How the data were processed

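Total RNA of 4 HCCLM3 samples was labelled by 3′ in vitro transcription and hybridised to 1 array each, per the labels' protocols. The deposited values are log2 signals made with MAS5, per the submitters' processing notes. No MAS5 version is given in the sources here. On the linear scale the 2% trimmed mean was 500.1 for each of the 4 arrays. The arrays are thus scaled to 1 common level, which does not match signals across the range, and quantile normalization is an alternative.

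Each array had 54675 probe sets, of which 62 controls were left out, 41097 had 1 gene symbol, 1801 several and 11777 none. Of the single-gene probe sets 41043 matched RefSeq (GRCh38.p14) for current names and gene spans, which 8128 of the 8130 brighter genes had. Platform annotation can be old. Ratios are differences of log2 signals between single arrays, with no offset, and low signals are the less certain. With 1 array a group there is no test.

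Named genes were EPCAM, ZEB1, ZEB2, CDH1, VIM and RBBP4, the 12 furthest from 0 in each direction among 7749 genes at or above the filter on both mimic arrays, the 12 in each direction with the largest smallest probe set ratio, in each list the largest 4 or fewer past 2-fold or else the largest 2, and 3 members of each family off 0. Families are symbol roots with 12 or more brighter genes. The members, lists and rules were chosen with earlier results of these data known. Alternatives are given in the closing section. Scripts, checked on simulated data, ran in Python 3.11.15 with pandas 2.3.3 and numpy 2.4.6.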

Additional observations from a re-analysis of the deposited data

How the results depend on the processing

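Other settings changed how many genes passed 2-fold more than which way they lay. The main counts were 146 higher and 36 lower. They became 692 and 496 with a filter at the median signal, and 21 and 3 with one at the 90th percentile. Quantile normalization gave 56 lower, and subtracting the median of genes of like span gave 91 higher and 52 lower. At 1.5-fold the counts were 806 and 439, and at 3-fold 7 and 4. The causes were not tested beyond the number of genes each filter leaves. Of the 33 lists and families off 0, the number still at or past 0.25 was 33 with an offset, 29 after centring, 27 with a lower filter, with the filter on the EpCAM-negative pair or with the median over probe sets, 16 after quantile normalization, 9 within gene span and 5 with the NC antagomir array as control. It was 19 of 32 with the stricter filter or unique probe sets.

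Medians that changed sign were those of ubiquitin ligases (-0.01) and DEAD-box helicases (-0.01) with the stricter filter, and of SWI/SNF and other remodellers with unique probe sets (-0.08), the stricter filter (-0.06) and the NC antagomir array (-0.04). The others were histone enzymes (-0.01) and ALDH genes (-0.23) with the NC antagomir array, cohesin and condensin (-0.03) and liver transcription factors (0.03) with the lower filter, and MHC class I (0.06) with unique probe sets. With the NC antagomir array, 79 of the 198 named genes moved by more than the robust SD of genes of like signal, beside 8 past 2-fold that changed sign. Among named genes past 2-fold the sign changed with the NC antagomir array for ARID1A (-0.07), CACNG4 (0.40), COPS2 (0.03), DHX35 (-0.07), LMTK2 (-0.09), SMURF1 (-0.11), TJP1 (-0.07) and TLE4 (-0.07), with the filter on the EpCAM-negative pair for ARID1A (-0.14), and with the median over probe sets for RBM33 (-0.04). No replicate could be left out, and no paired analysis was possible because each group has 1 array.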

Other observations

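Long non-coding RNAs had a median slightly below 0 as a class. Of 232 brighter ones 100 were above 0, with a median log2 ratio of -0.07 and a median span of 6.7 kb. The group of all brighter genes with a median span of 6.1 kb had -0.21. Over the NC antagomir the median of the long non-coding RNAs was -0.01. Of 7829 protein-coding genes 142 were at least 2-fold higher and 34 lower, and of all brighter genes 1.8% and 0.443%. Among the long non-coding RNAs 3 were at least 2-fold higher and 2 lower. UCA1 was 1 of the 3.

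In the main comparison the machinery of protein synthesis other than ribosomes did not follow the ribosomal proteins, whose median span was 5.0 kb. After quantile normalization the ribosomal proteins were at -0.01, initiation and elongation factors at 0.07 and ribosome biogenesis factors at 0.06. Against like span they were at -0.13, 0.02 and 0.11 in that order. Cytosolic aminoacyl-tRNA synthetases had 13 of 18 members above 0 and a median of 0.16 (0.09 against like span, 0.05 over the NC antagomir). RARS1, which charges arginine tRNA, had signals of 524 with the NC mimic, 1043 with miR-429, 549 with the NC antagomir and 620 with antagomir-429, and the miR-429 array stood above the other 3. IARS1, for isoleucine, had 2010, 3891, 2754 and 3956. In the main comparison initiation and elongation factors were at -0.03, ribosome biogenesis factors at 0.09 and the integrated stress response at -0.01. Within that response EIF2AK4, the kinase that senses uncharged tRNA, had 295, 587, 350 and 536, a ratio of 0.99.

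Iron uptake genes gave high single values in a list near 0. TFRC, the transferrin receptor, had signals of 3554, 5750, 2787 and 3253 on the NC mimic, miR-429, NC antagomir and antagomir-429 arrays, and SLC39A14, a zinc and iron importer, 5324, 9760, 6055 and 5619. Both were highest with miR-429, while the list's median was -0.17. S100 proteins and annexins had 16 of 19 members below 0 and a median of -0.24, and S100A14 had 0.78.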
